A study of Homo sapiens with 2 samples.

Results

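A set of 9 genes of BMP and TGF-beta feedback was examined in HCT116 cells, a human colorectal carcinoma line, after the RAF kinase inhibitor SB590885. The genes were BAMBI, ID1, ID2, ID3, SMAD6, SMAD7, SKIL, PMEPA1 and TGFBI, chosen by name with earlier results of these arrays known. They were measured by every array probe that the platform annotation maps to them, 16 probes of the 47318 on the array. A probe counted as detected when its deposited detection p, the chance that background alone gives its signal, was under 0.01 on either array. By this rule 9 of the 16 probes and 7 of the 9 genes were detected, and so were 10430 of all 20045 genes with a named probe. The cells given SB590885 at 10 nM and the cells given vehicle were both labelled p53+/+ and were treated near confluence in serum-containing medium, and each condition was measured on 1 array. The duration of treatment is not given in the sources used here. With 1 array per condition no replicate checks any difference, no p-value was computed, and each ratio describes these 2 arrays.

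Ligands of the TGF-beta family bind pairs of type II and type I receptor kinases, which phosphorylate SMAD proteins. BMP ligands act mainly through SMAD1, SMAD5 and SMAD9, and TGF-beta and activin through SMAD2 and SMAD3, in both cases with the shared partner SMAD4. The pathway restrains itself through genes that it induces, among them the pseudoreceptor BAMBI and the inhibitory SMAD6 and SMAD7. In the intestine BMP signals favour differentiation over crypt stem cell growth. HCT116 cells are mismatch-repair deficient and are known for an inactivated TGFBR2, the type II TGF-beta receptor, with SMAD4 retained.

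The genes furthest from equal levels on the 2 arrays were BAMBI and ID2, in opposite directions, and their promoters are shown with that of SMAD6, whose window holds a palindromic SMAD-binding element. Each sequence runs from 250 bases before the annotated start to 50 bases after it, from RefSeq on GRCh38.p14, on the gene's plus strand. Capitals mark matches to any of 6 motifs searched on both strands: the GC-rich SMAD site GGCGCC, the palindromic SMAD-binding element GTCTAGAC, the SMAD box CAGACA, a spaced BMP response element of 15 letters, the AP-1 site TGANTCA and the cyclic AMP response element TGACGTCA. GGCGCC can overlap the spaced BMP response element, but no match of that element was found in the windows of these genes.
BAMBI, chr10:28677271-28677570: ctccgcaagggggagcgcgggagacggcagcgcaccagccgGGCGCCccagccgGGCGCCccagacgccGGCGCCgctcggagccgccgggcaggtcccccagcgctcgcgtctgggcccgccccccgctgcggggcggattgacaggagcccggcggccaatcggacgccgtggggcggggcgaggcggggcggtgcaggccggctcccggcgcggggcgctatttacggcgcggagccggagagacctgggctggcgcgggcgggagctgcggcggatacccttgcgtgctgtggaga
ID2, chr2:8681806-8682105: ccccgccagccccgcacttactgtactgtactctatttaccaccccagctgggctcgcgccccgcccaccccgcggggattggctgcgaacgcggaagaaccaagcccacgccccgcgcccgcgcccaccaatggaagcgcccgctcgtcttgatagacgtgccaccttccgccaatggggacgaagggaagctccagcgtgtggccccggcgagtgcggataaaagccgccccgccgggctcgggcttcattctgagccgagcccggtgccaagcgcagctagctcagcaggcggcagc
SMAD6, chr15:66701986-66702285: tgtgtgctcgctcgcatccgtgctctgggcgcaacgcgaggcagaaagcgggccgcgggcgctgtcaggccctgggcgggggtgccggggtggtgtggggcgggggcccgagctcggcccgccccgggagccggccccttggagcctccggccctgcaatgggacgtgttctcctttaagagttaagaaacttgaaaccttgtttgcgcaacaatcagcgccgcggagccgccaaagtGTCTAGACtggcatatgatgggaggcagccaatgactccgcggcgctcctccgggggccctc
The BAMBI window held 3 copies of GGCGCC, beginning 209, 196 and 181 bases before the start. Of 35116 promoter windows of the same length, 19.2% held at least 1 copy and 0.871% held 3 or more. The BAMBI window is also 80% G and C, against a median of 58.7% over all windows, and 2.63% of windows were as rich. In the SMAD6 window GTCTAGAC began 12 bases before the start, and 0.202% of windows held this motif. The ID2 window held none of the 6 motifs. Neither did the windows of ID1 and ID3 or the 3 windows of SMAD7. SKIL had 1 GGCGCC and 1 TGACGTCA, and TGFBI had 1 GGCGCC. Of the 4 windows of PMEPA1, 1 held the GC-rich SMAD site, 1 held CAGACA and 1 held the cyclic AMP response element. Over all windows CAGACA was found in 16.9%, TGACGTCA in 1.85%, TGANTCA in 7.71% and the spaced BMP response element in 0.350%. These matches describe letters in short windows and were not set against the ratios. The cut of 3 copies is BAMBI's own count, and SMAD6 was shown for its match, so these shares are no test of rarity.

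BAMBI encodes a membrane protein that resembles a type I receptor without the kinase and dampens TGF-beta family signalling. Its probe had an intensity of 1258 after SB590885 and 324 with vehicle, a log2 ratio of 1.96 or 3.88-fold higher, and was detected on both arrays. BAMBI was thereby the only one of the 9 genes that was at least 1.5-fold higher, a size that 1.51% of all detected genes reached in that direction. It also passed 2-fold, which 0.268% of detected genes did on the high side. In log2 ratio it ranked 2 of 10430, after the transcription factor gene SOX4 (2.06) and before the trypsinogen gene PRSS3 (1.80) and the zinc-finger gene ZBED2 (1.77). With 2 arrays a gene's pattern is a single ratio, so this nearness in rank is the only measure of likeness to BAMBI. BAMBI has 1 named probe, so no second probe repeats the value. In RNA from whole cultures, more cells with the transcript and more transcript per cell cannot be told apart.

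**Figure D1:**
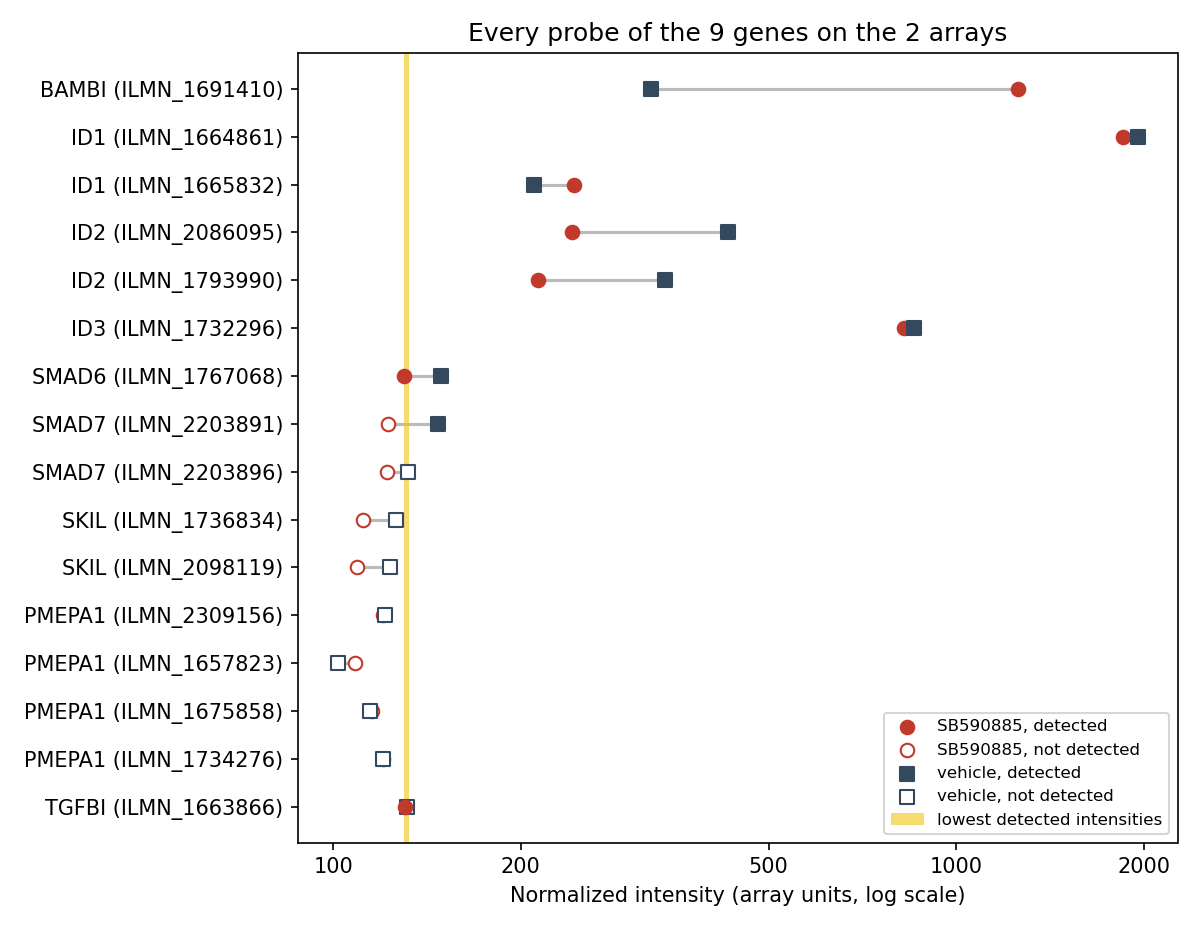
Normalized intensity (array units, log scale) of each of the 16 probes after SB590885 (circles) and with vehicle (squares), filled where detected. BAMBI lies far to the right after SB590885 (1258, against 324 with vehicle), both ID2 probes lie to the left, and the probes of SKIL, PMEPA1 and TGFBI lie at or below the band of lowest detected intensities (129.8 to 132.2). Intensities of different probes cannot be set against each other.

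The ID genes, classical BMP targets, encode helix-loop-helix proteins without a DNA-binding region that hold E proteins away from DNA. The 3 genes differed among themselves. ID2 was lower after SB590885 by both of its probes. The first had an intensity of 242 after SB590885 and 430.4 with vehicle, a log2 ratio of -0.83 or 1.78-fold lower. The second had 214 after SB590885 and 341 with vehicle, a log2 ratio of -0.68 or 1.60-fold lower. ID2 was the only one of the 9 genes at least 1.5-fold lower, a size that 1.18% of all detected genes reached in that direction, and it ranked 37 from the lowest. It did not pass 2-fold, which 0.134% of detected genes did on the low side.

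ID1 and ID3 stayed close to their vehicle levels. The probe of ID3 had 824 after SB590885 and 854 with vehicle, a log2 ratio of -0.05. The brighter probe of ID1 had 1852 after SB590885 and 1953 with vehicle, a log2 ratio of -0.08. The other ID1 probe went the opposite way, with 243 after SB590885 and 209.8 with vehicle, a log2 ratio of 0.21. The 2 ID1 probes thus gave no common direction. Their difference can be set beside the SD of 0.247 for the difference in log2 ratio between the 2 brightest detected probes of a gene, over 2631 genes. ID4, the remaining family member, was not detected on either array.

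The inhibitory SMADs, SMAD6 and SMAD7, block receptor-activated SMADs, SMAD6 mainly in the BMP branch and SMAD7 in both branches. Both were dim and lower after SB590885. SMAD6 had an intensity of 129.9 after SB590885, with a detection p of 0.00909, and 149 with vehicle, a log2 ratio of -0.20. This ratio is smaller in size than the SD of 0.247 given above, and no second probe repeats it. The value after SB590885 lay at the lowest detected intensity of that array, 129.8. SMAD7 had 122 after SB590885, where it was not detected, and 147 with vehicle, where it was. Against the lowest detected intensity of the SB590885 array SMAD7 was at least 1.14-fold lower. The second SMAD7 probe fell just outside the rule, with 122 after SB590885 and 132 with vehicle and a vehicle detection p of 0.0104.

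These dim probes lie a little above the background that the deposited values still contain, and background compresses ratios. After limma's neqc correction of the same table at an offset of 16, SMAD6 was 1.58-fold lower and SMAD7 1.91-fold, although the SMAD7 value still uses an array on which it was not detected. The same correction put ID2 at 2.31-fold and 2.10-fold lower by its 2 probes and BAMBI at 5.12-fold higher. It left the brighter ID1 probe (-0.08 on the log2 scale) and ID3 (-0.06) near 0. The other ID1 probe stood at 0.37 after correction, further from 0 than as deposited. After correction, 5.53% of all detected genes were at least 1.5-fold lower and 6.63% at least 1.5-fold higher, so a ratio of that size was more common among all genes than in the deposited values. SMAD6 and SMAD7 were below 1.5-fold again at an offset of 50 (1.28-fold and 1.40-fold lower).

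**Figure D2:**
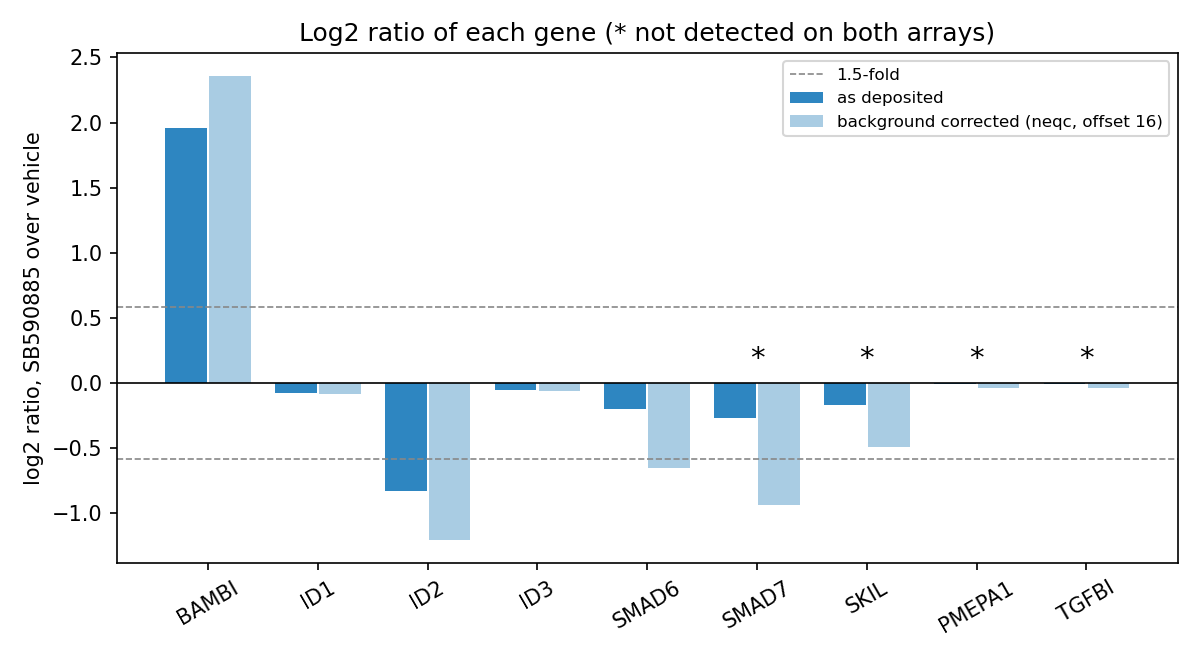
Log2 ratio of SB590885 over vehicle for the probe that stands for each of the 9 genes, from the deposited intensities (dark bars) and after background correction with neqc at an offset of 16 (light bars), with dashed lines at 1.5-fold and asterisks on genes not detected on both arrays. BAMBI stands at 1.96 and 2.36, ID2 at -0.83 and -1.21, and SMAD6 and SMAD7 pass the lower line only after correction.

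SKIL, PMEPA1 and TGFBI, read mostly as TGF-beta targets, were at or below the limit of detection. SKIL, which encodes the SMAD co-repressor SnoN, had 2 probes and was detected on neither array. Its brighter probe had 112 after SB590885 and 126 with vehicle, with a vehicle detection p of 0.0247. PMEPA1, a membrane protein that keeps SMAD2 and SMAD3 from receptors, had 4 probes between 101.7 and 121 on the 2 arrays, none of them detected. TGFBI, a secreted matrix protein induced by TGF-beta, lay just inside the rule through the SB590885 array. It had 131 after SB590885, with a detection p of 0.00649, and 132 with vehicle, with a detection p of 0.0104, so no fold is given. For these 3 genes a difference was not detectable at this signal, which does not show that there was none.

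Taking all 9 genes, each by its brightest detected probe or else its brightest probe, the median log2 ratio was -0.08, and that of all detected genes was -0.00082. The range from -0.83 to 1.96 belongs to ID2 and BAMBI, and the remaining 7 genes lay between -0.27 and -0.01. Of the 7 probes detected on both arrays, 5 were lower after SB590885 and 2 higher, with ID1 and ID2 counted by 2 probes each. Of all genes detected on either array, each by 1 probe, 50.1% were lower, which is not a like measure. The genes lie on chromosomes 1, 2, 3, 5, 10, 15, 18 and 20, with ID1 and PMEPA1 both on chromosome 20.

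**Figure D3:**
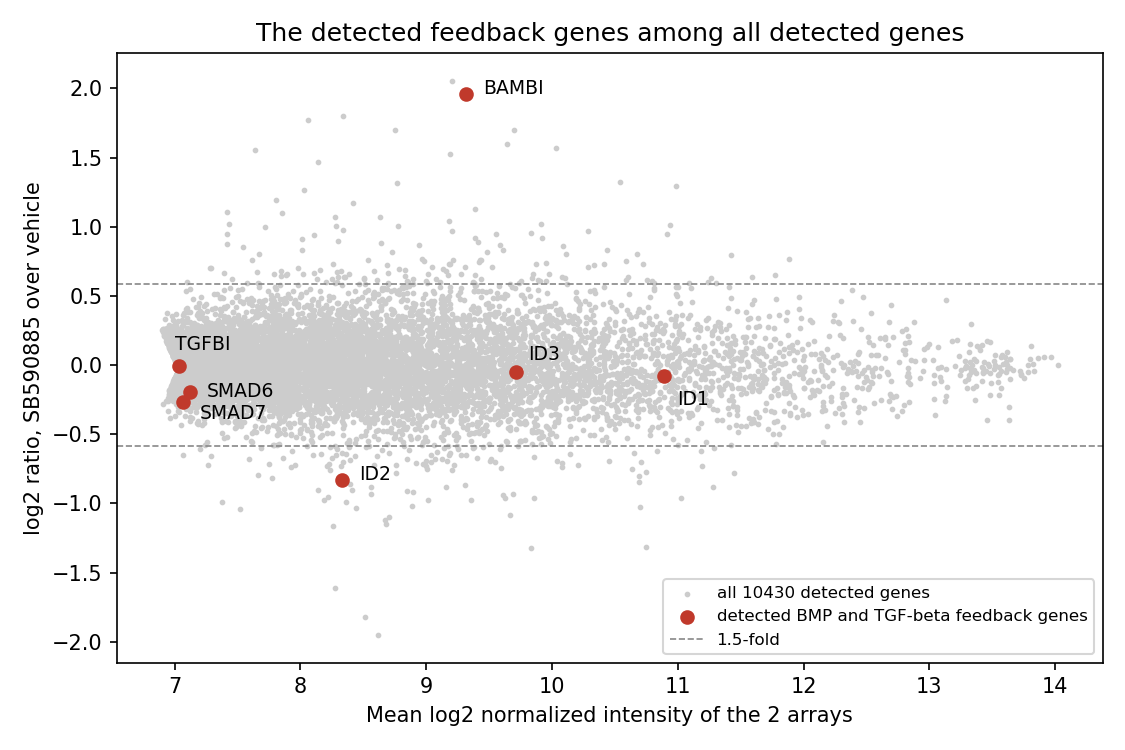
Log2 ratio of SB590885 over vehicle against mean log2 normalized intensity for 10430 detected genes (grey), with the 7 detected feedback genes in red and dashed lines at 1.5-fold. BAMBI is near the top at 1.96, ID2 lies below the lower line at -0.83, and ID1, ID3, SMAD6, SMAD7 and TGFBI lie within the main cloud.

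The other genes of the pathway were described by role, from 12 lists holding 133 genes besides the 9. Of these, 125 had a named probe and 58 were detected, 25 higher and 33 lower after SB590885 (56.9% lower, against 50.1% of all detected genes), with a median log2 ratio of -0.09. Detection held on both arrays for 50 of the 58, and each of the others was higher on the array where it was detected. With detection required on both arrays the median was -0.11. By the 1.5-fold rule 2 of the 58 were higher and 2 lower, sizes that 1.51% and 1.18% of all detected genes reached. Few ligands were detected: 2 of 16 for TGF-beta, activin and NODAL, and 3 of 14 for BMPs. For this and the other lists, the share over all genes with a named probe was 10430 of 20045. TGFB1 was not detected on either array. GDF15 and GDF11, distant and activin-like family members, had log2 ratios of -0.15 each, although a second GDF11 probe had 0.08. BMP4, a BMP ligand, had 167 after SB590885 and 214 with vehicle, a log2 ratio of -0.36. BMP7 had 114 after SB590885, where it was not detected, and 154 with vehicle, and was at least 1.19-fold lower. Of the 3 detected BMP ligands BMP8B was level, at 0.01.

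Among receptors, TGFBR2 was furthest from its vehicle level. The other detected type II and type I genes had log2 ratios from -0.14 to 0.06 by their brightest probe. TGFBR2 had 216 after SB590885 and 324 with vehicle, a log2 ratio of -0.58, just short of 1.5-fold. Its second detected probe had a smaller log2 ratio of -0.24. BMPR2, the BMP type II receptor, had -0.14, and ACVR2A, an activin receptor, had -0.11 by its brighter probe and 0.09 by another, detected after SB590885 only. The type I genes ACVR1B and ACVR1 had 0.06 and 0.05. BMPR1A, a BMP type I receptor, is not analysed here. Among co-receptors the betaglycan gene TGFBR3 had a log2 ratio of -0.30 and RGMA, a BMP co-receptor, 0.23.

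The signal-carrying SMADs had no member past 1.5-fold. SMAD4, the shared partner, had 609 after SB590885 and 791 with vehicle, a log2 ratio of -0.38. SMAD5, of the BMP branch, was highest at 0.21 by its brighter detected probe and 0.03 by the other, and SMAD3, of the TGF-beta branch, had 0.02. SMAD1 and SMAD9, the other BMP-branch SMADs, were not detected. Intracellular negative regulators were detected for 10 of 11 genes, 8 of them below 0 by their brightest probe, none by 1.5-fold, where 50.1% of all detected genes were below 0. Of these 8, TRIM33 (-0.22) and FKBP1A had detected probes that went the other way, TRIM33 at 0.11. By brightest probe they ran from FKBP1A, which holds type I receptors inactive, at -0.32 to the co-repressor TGIF1 at 0.33. FKBP1A has no common direction, since its further detected probes had -0.17, 0.20 and 0.36, and the other detected TGIF1 probes were nearer 0, at 0.08 and 0.03. The secreted antagonists were mostly undetected, at 3 of 14, from FSTL3, which binds activin, at -0.31 to NBL1 at 0.34, although a second NBL1 probe had -0.05. NOG, GREM1 and FST, which encode noggin, gremlin and follistatin, were not detected. Genes of TGF-beta latency and activation were detected for 6 of 10. Among those detected on both arrays they ran from ITGAV, an integrin subunit, at -0.14 to LTBP3, a latent TGF-beta binding protein, at 0.30. THBS1 (thrombospondin) was detected with vehicle only and was at least 1.03-fold lower.

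Among other BMP targets 5 of 9 were detected and MSX1 passed the 1.5-fold rule. MSX1, a homeobox factor, had 2130.4 after SB590885 and 3659 with vehicle, a log2 ratio of -0.78 or 1.72-fold lower. No second probe repeats the MSX1 value, and 1.18% of all detected genes were at least 1.5-fold lower. The related MSX2 had 157 after SB590885 and 212 with vehicle, a log2 ratio of -0.44, and was 1.93-fold lower with background correction. DLX3, HEY1 and GATA2 were detected after SB590885 only and were at least 1.05-fold, 1.05-fold and 1.06-fold higher. These 3 genes counted as detected only through the array on which they were higher, so the list's median of 0.09 over 5 detected genes gives no direction. The 2 genes detected on both arrays, MSX1 and MSX2, were both lower.

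Of 22 other TGF-beta targets with a named probe 15 were detected, 13 of them on both arrays. Of the 15, 6 were higher and 9 lower, where 50.1% of all detected genes were lower. By the 1.5-fold rule 2 were higher and 1 lower, sizes that 1.51% and 1.18% of all detected genes reached. TSC22D1, a leucine-zipper protein first found as TGF-beta induced, had 3623 after SB590885 and 2085 with vehicle, 1.74-fold higher, with further detected probes at 1.51-fold and 1.41-fold. RHOB, a small GTPase, had 591 after SB590885 and 384 with vehicle, 1.54-fold higher, with no second probe. CCN2, connective tissue growth factor, was 1.64-fold lower by its brighter probe and 1.12-fold by the other. ITGB5, an integrin subunit, was 1.28-fold lower by its brightest probe, while its further detected probes were 1.55-fold and 1.17-fold lower. Of the partners of ID proteins, the E protein gene TCF12 had log2 ratios of -0.46 and -0.30 by its 2 detected probes, TCF3, also an E protein, had 0.02, and the bHLH repressor HES1 had 0.13.

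**Figure D4:**
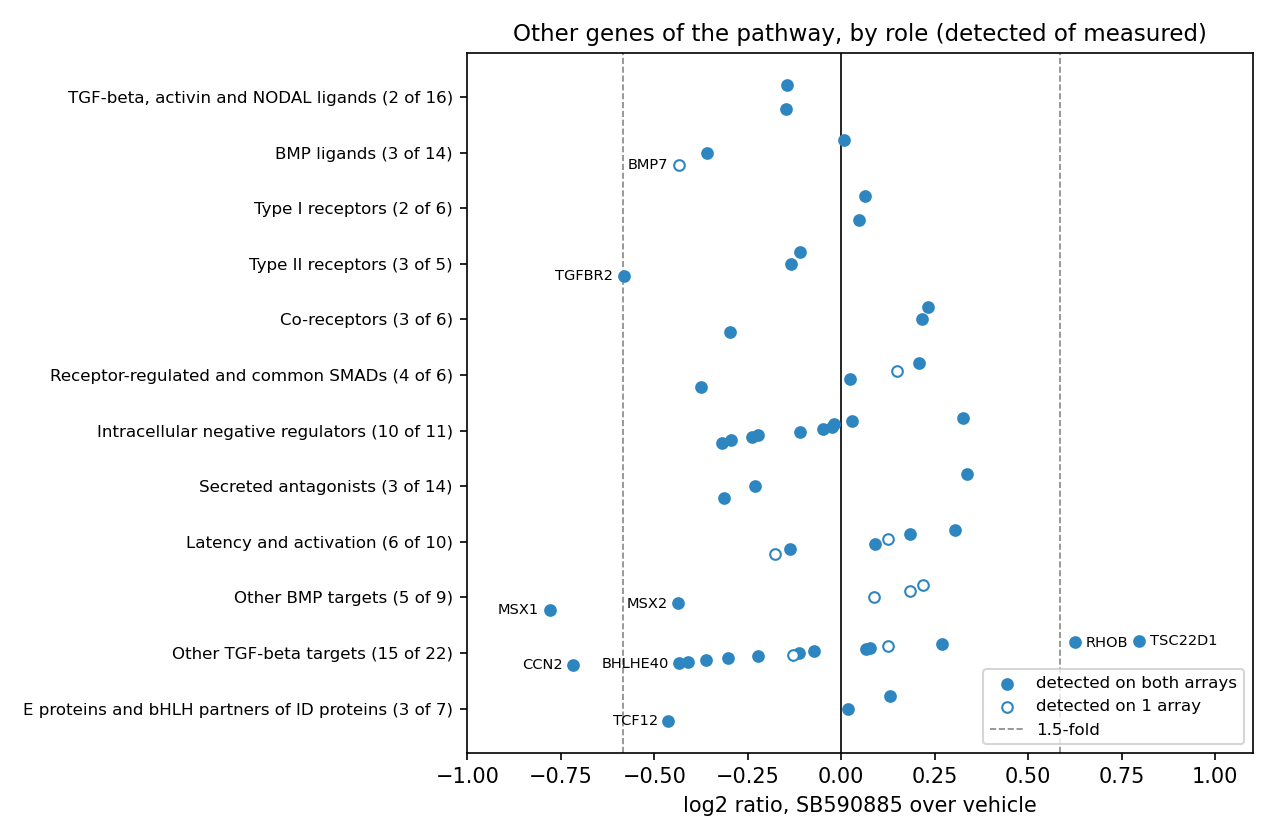
Log2 ratio of SB590885 over vehicle for the detected genes of 12 pathway lists, with each point a gene, filled where it was detected on both arrays, and dashed lines at 1.5-fold. MSX1 (-0.78) and CCN2 (-0.72) lie left of the lower line, RHOB (0.62) and TSC22D1 (0.80) lie right of the upper one, and TGFBR2 (-0.58) lies at the lower line. LTBP2 stands in 2 lists.

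With background correction 9 of the 58 detected pathway genes were at least 1.5-fold lower and 4 at least 1.5-fold higher, where 5.53% of all detected genes were that much lower and 6.63% that much higher. The lower genes were the ligands BMP4 (1.67-fold) and BMP7 (2.65-fold), the receptors TGFBR2 (1.90-fold) and TGFBR3 (1.63-fold), the targets MSX1 (1.75-fold), MSX2 (1.93-fold) and CCN2 (2.53-fold), THBS1 (1.55-fold) and TCF12 (1.74-fold). The second detected probes of TGFBR2 (1.36-fold), CCN2 (1.33-fold) and TCF12 (1.49-fold) stayed under 1.5-fold lower. ITGB5 was not counted, at 1.32-fold lower by its brightest probe, although a dimmer detected probe was 2.08-fold lower. BMP7 and THBS1 were not detected after SB590885, so these corrected values are not bounds. The higher genes were TSC22D1 (1.77-fold), RHOB (1.73-fold), DLX3 (1.73-fold) and HEY1 (1.59-fold), of which DLX3 and HEY1 were not detected with vehicle. BMP7, THBS1, DLX3 and HEY1 thus counted as detected only through the array on which they were higher. Correction enlarges the ratios of dim probes, so shares over genes of all intensities are not a like background. At an offset of 50, 6 of the 58 were lower and 2 higher, and 248 and 317 of all detected genes.

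On the array of SB590885-treated cells 35.3% of probes were detected and on the vehicle array 33.7%. Markers of the labelled cell type and of other cell types were read. Of 10 colon epithelial genes 5 were detected, among them EPCAM (6439 after SB590885 and 4420.2 with vehicle), KRT8, KRT18, CDH1 and CDX2, whereas KRT20, CDX1, VIL1, CEACAM5 and LGALS4 were not. Of other cell types, 1 of 5 leukocyte genes (CD68), 3 of 7 stromal genes (COL1A1, COL1A2 and DCN) and 0 of 4 endothelial genes were detected. COL1A2 was detected with vehicle only (132.4) and DCN after SB590885 only (130.3), each near the lowest detected intensity of its array. Over all genes with a named probe 10430 of 20045 were detected, a share close to that of the colon epithelial genes. The count alone therefore does not check the label. PTPRC, COL3A1, PDGFRB and PECAM1 were below detection on both arrays.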

How the data were processed

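RNA from 2 cultures was amplified into biotinylated cRNA and measured on Illumina bead arrays, per the labels' protocols. The authors deposited intensity values on a linear scale with a detection p-value per probe and array. The software and the way of normalizing were not given in the sources used here. The series matrix repeats the normalized table exactly. A table deposited under the name non-normalized holds the same values multiplied by 1.025, including its detection column, a rescaled score that reaches 1.025, and therefore no raw signal. After sorting, the arrays match to within 0.129 units, and the lowest intensity is 90.7, which leaves background in.

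Log2 ratios were computed from the deposited normalized intensity values. Of 47318 probes, 30111 had 1 annotated gene, 8 had several and the others none listed. Symbols were updated through Entrez identifiers for 30072 probes with RefSeq's GRCh38.p14, used only for names, chromosomes and promoters. All 9 genes matched promoter windows, 14 in all. A gene took its detected probe of highest mean log2 intensity. Detection p under 0.01, the 1.5-fold rule and, for genes detected on 1 array, a bound against the lowest detected intensity (129.8 for SB590885, 132.2 for vehicle) were used. Background correction used limma 3.58.1 (neqc) in R 4.3.3, and the rest Python 3.11.15 with pandas 2.3.3. It starts from already normalized values.

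The members, lists and rules were chosen with earlier results of these data known. Named are all 9 genes with every probe. From the lists, a short set of pathway genes is named, of which 1 is not reported here, with those past 1.5-fold and the highest and lowest of each list. Other genes were chosen after their values were seen. Gene choice and size rule were tested on simulated data. Proteins are not shown, since no protein table was used. The number of arrays limits the precision. No per-sample column was left unmapped.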

Additional observations from a re-analysis of the deposited data

How the results depend on the processing

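BAMBI stayed at least 1.5-fold higher and ID2 at least 1.5-fold lower under the 12 alternatives, of which 5 changed the value of BAMBI and 6 that of ID2, with log2 ranges of 1.91 to 2.44 and -1.30 to -0.75. ID1 ran from -0.09 to 0.07, turning positive with the mean of its 2 probes, ID3 from -0.07 to -0.05 and TGFBI from -0.07 to 0. The median of the 9 genes ran from -0.10 to -0.05 and that of the other pathway genes from -0.19 to -0.02. No member past 1.5-fold changed direction in these alternatives. Sizes moved with background correction, which by its construction enlarges the ratios of dim probes. With neqc at offset 16, at offset 1, and with median centring, the log2 ratio was 2.36, 2.44 and 2.34 for BAMBI, -1.21, -1.30 and -1.22 for ID2, -0.66, -1.05 and -0.67 for SMAD6, and -0.94, -1.64 and -0.94 for SMAD7. SMAD7 was detected with vehicle only, so its corrected ratios use an undetected value and are not bounds. In each of these 3 settings 3 of the 7 detected genes were at least 1.5-fold lower, ID2, SMAD6 and, with that limit, SMAD7. The undetected SKIL had a log2 ratio of -1.31 at offset 1. All detected genes at least 1.5-fold higher then numbered 691, 1129 and 661, and those lower 577, 931 and 605, while other pathway genes numbered 4, 7 and 4 higher and 9, 13 and 9 lower. At offset 50 the counts were 317 higher and 248 lower over all genes, and 6 pathway genes lower. These compare with 158 higher and 123 lower over all genes, and 2 and 2 among pathway genes, as deposited. With bounds for genes detected on 1 array they were 157 and 121. The mean over detected probes left 1 pathway gene lower, since the second CCN2 probe had a smaller ratio. The 2-fold rule left 28 genes higher and 14 lower over all genes, 0 of the 9 genes lower, and 0 pathway genes in either direction. With detection required on both arrays SMAD7 and TGFBI had no value. The series matrix holds the same values and could not move any. Since no replicate spread exists, a log2 ratio counted as moved when it changed by more than 0.247. That is the SD of the difference in log2 ratio between the 2 brightest detected probes of a gene. A count was called moved when it changed by over 1.5 times. No paired analysis was possible because each condition had 1 array.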
